A study of Sus scrofa with 20 samples.

Results

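Cells keep the calcium of their cytosol low by moving the ion out across the plasma membrane or into internal stores, and they let it back in when a receptor is engaged. Pumps of the endoplasmic reticulum (the SERCA family), of the Golgi apparatus (the secretory pathway pumps) and of the plasma membrane (the PMCA family) spend ATP on this transport, whereas the sodium/calcium exchangers draw on the sodium gradient. In lymphocytes and monocytes the balance of entry and clearance shapes the calcium signal behind activation. The transcripts followed here were ATP2A2 and ATP2A3 (SERCA pumps), ATP2C1 (a Golgi pump), ATP2B1 and ATP2B4 (PMCA pumps), SLC8A1 (the plasma membrane exchanger NCX1) and SLC24A4 (the potassium-dependent exchanger NCKX4). Every probe set that the array annotation assigns to one of these 7 symbols was taken, which gave 31 of the 47845 probe sets of the array and 7 of its 13664 named genes. The probe set with the highest mean over 20 arrays served as the main value of a gene.

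The values came from peripheral blood mononuclear cells (PBMC) of German Landrace piglets, obtained from blood on a density gradient, with 1 array for each animal. The L group (n = 6, 3 females and 3 males) was fed a diet low in calcium and phosphorus, the M group (n = 7, 4 females and 3 males) a diet at the recommended level and the H group (n = 7, 3 females and 4 males) a diet high in both minerals. All piglets were 63 days old, the males were castrated, and calcium and phosphorus were varied together, so that their parts cannot be told apart. The paper reports that H piglets also ate and weighed less, had lower serum zinc and showed symptoms of parakeratosis. These differences cannot be told apart from the mineral level here. The piglets came from a few litters, litter is not given in the labels, and littermates were therefore treated as independent. Values are log2 intensities after RMA, which subtracts background, gives every array the same distribution and combines the probes of a probe set into 1 value. Group differences are therefore log2 fold changes.

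The median of an array was 4.29 to 4.46. The 69 background control probe sets averaged 3.78 ± 0.17 in L (SD, n = 6), 3.85 ± 0.23 in M (SD, n = 7) and 3.79 ± 0.11 in H (SD, n = 7). The label PBMC was checked against cell type markers. The T cell marker CD2 averaged 10.96 over 20 arrays, the B cell marker MS4A1 11.02, the cytotoxic cell marker GNLY 10.59 and the monocyte marker VCAN 9.79. Markers of cells that a gradient should largely remove were also measured, with HBB of erythroid cells at 13.43 and CSF3R of neutrophils at 10.19. TUBB1 of platelets stood at 7.44 and FCER1A of dendritic cells at 7.45.

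Of the 31 probe sets, 18 were brighter than their array's median in no fewer than 16 of 20 piglets and entered the tests, and 13 did not. All probe sets of ATP2A2 (3 of 3) and ATP2A3 (4 of 4) passed, as did 1 of 2 of ATP2C1, 4 of 5 of ATP2B1, 4 of 5 of ATP2B4, 2 of 9 of SLC8A1 and 0 of 3 of SLC24A4. For a call, the limma fit had to give an unadjusted p under 0.01 as well as a q under 0.21 (Storey's estimate of the false discovery rate), the thresholds that the study's methods name. None of the 7 genes was called in H against L, where 0.0271% of the 22127 probe sets tested were. Likewise none was called in M against L (0% of all) or in H against M (0.0226% of all). The study, whose model held litter and whose filter used presence calls, reported far more probe sets between L and H at these thresholds. The cause of this gap was not tested. At an unadjusted p under 0.01 alone, SLC8A1 was past the threshold in H against L, as 1 of the 18 probe sets, against 2.09% of all probe sets. The same threshold gave 0 of 18 in M against L, against 0.447% of all, and 0 of 18 in H against M, against 1.55% of all. At an unadjusted p under 0.05, 1 of the 18 probe sets passed in H against L, against 8.57% of all, 0 passed in M against L, against 2.26%, and 1 passed in H against M, against 6.74%. The comparisons are not independent, as those with L share the L animals and those with H the H animals. In M against L q was 1 throughout, and it is not repeated below. Exact p below are from two-sided exact permutation tests of the group means of the main value.

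**Figure D1:**
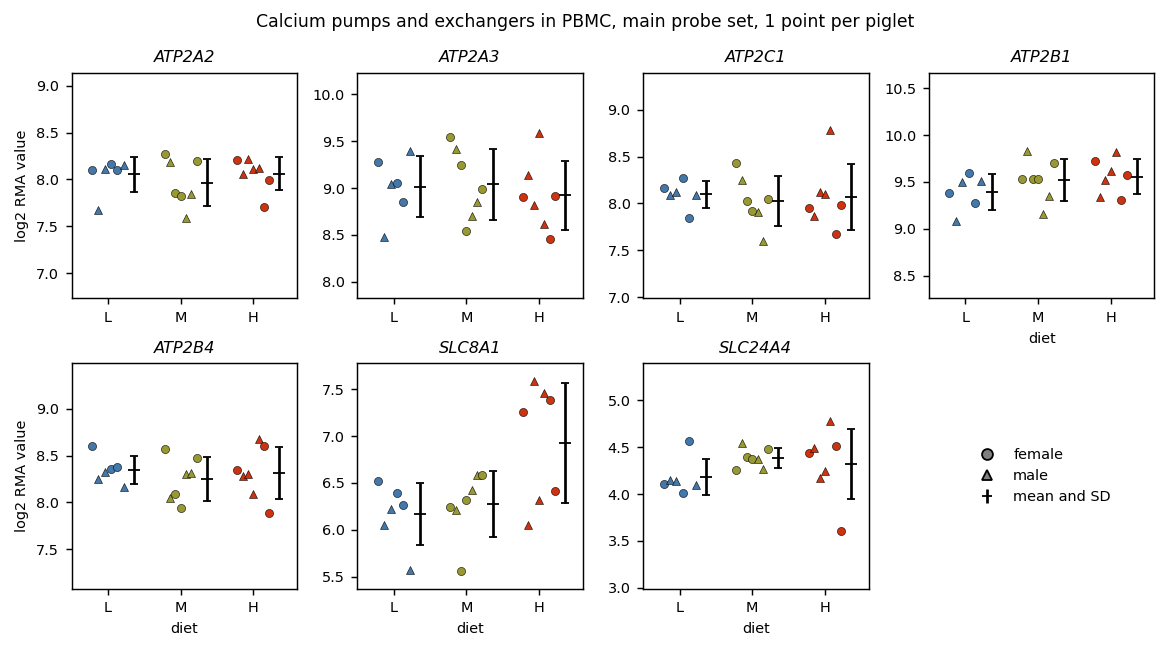
Log2 RMA value of the main probe set of each gene (vertical axis, same span in each panel) in the L, M and H groups (horizontal axis), with 1 point per piglet (circles females, triangles males) and bars for mean and SD. Of the 7 H piglets, 4 lay above every L and M piglet for SLC8A1, at 7.26 or higher, while the diets overlapped for all 7 genes.

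ATP2A2 encodes SERCA2, which refills the endoplasmic reticulum and is present in most cell types. Its main value ran from 7.67 over a median of 8.11 to 8.16 in L, from 7.59 over 7.86 to 8.28 in M, and from 7.71 over 8.11 to 8.22 in H. The 3 groups overlapped, and the span of M contained all of the H animals. H minus L was 0.01 (95% CI -0.25 to 0.28, q = 0.918, exact p = 0.948), M minus L -0.09 (exact p = 0.495) and H minus M 0.10 (q = 0.908, exact p = 0.425). Its other 2 probe sets gave H minus L of -0.13 and -0.16 and M minus L of -0.20 (95% CI -0.43 to 0.02) and -0.31 (95% CI -0.62 to 0.00397), none past the threshold. They followed the main probe set loosely over the 20 piglets, with r of 0.39 and 0.47.

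ATP2A3 encodes SERCA3, the SERCA pump typical of blood cells and some epithelia. It spanned 8.48 to 9.40 in L (median 9.05), 8.54 to 9.55 in M (median 8.99) and 8.46 to 9.59 in H (median 8.91). High and low piglets occurred in each diet, with the highest and the lowest value both in H. H minus L was -0.10 (95% CI -0.50 to 0.31, q = 0.877, exact p = 0.641), M minus L 0.03 (exact p = 0.903) and H minus M -0.13 (q = 0.918, exact p = 0.553). Of its 4 probe sets, 3 had H below L, down to -0.30 (95% CI -0.65 to 0.05, q = 0.609), and 1 was at 0.04.

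ATP2C1 encodes SPCA1, which loads the Golgi apparatus with calcium and manganese. Its values lay between 7.85 and 8.27 in L (median 8.11), between 7.59 and 8.43 in M (median 8.03) and between 7.68 and 8.78 in H (median 7.98). A single H piglet, male replicate 5, stood above the rest at 8.78, and the next H piglet was at 8.12. H minus L was -0.03 (95% CI -0.35 to 0.29, q = 0.907, exact p = 0.861). The differences were -0.07 for M minus L (exact p = 0.583) and 0.04 for H minus M (q = 0.946, exact p = 0.802). Its second probe set averaged 1.96, under the mean of the background controls on all arrays, and did not vary with the first (r = -0.10).

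ATP2B1 encodes PMCA1, the widely expressed pump that extrudes calcium across the plasma membrane. The main probe set ranged from 9.09 to 9.60 in L (median 9.44), from 9.16 to 9.83 in M (median 9.53) and from 9.30 to 9.82 in H (median 9.57). Although 3 of 7 H piglets exceeded every L piglet, most animals of the 2 groups shared one range. H minus L was 0.17 (95% CI -0.09 to 0.42, q = 0.713, exact p = 0.142), M minus L 0.13 (exact p = 0.275) and H minus M 0.04 (q = 0.940, exact p = 0.751). Next in mean level was a probe set with H minus L of 0.24 (95% CI -0.02 to 0.50, q = 0.569), and the remaining values were 0.06, -0.07 and 0.05, the last from a probe set that did not pass the filter.

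ATP2B4 encodes PMCA4, a second plasma membrane pump of blood cells. It was measured at 8.16 to 8.61 in L (median 8.34), 7.94 to 8.57 in M (median 8.31) and 7.88 to 8.68 in H (median 8.30). Neither M nor H left the range of the other diets as a group. H minus L was -0.03 (95% CI -0.31 to 0.25, q = 0.907, exact p = 0.804), M minus L -0.10 (exact p = 0.3998) and H minus M 0.07 (q = 0.927, exact p = 0.639). All 5 probe sets had H minus L below 0, from -0.18 to -0.03, none past the threshold.

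SLC8A1, the exchanger that trades calcium for sodium at the plasma membrane and for which the heart is best known, showed the widest spread. The 6 L piglets had values of 6.52, 6.05, 6.22, 6.39, 6.26 and 5.57 (replicates 1 to 6), and the 7 M piglets 6.25, 6.21, 5.56, 6.32, 6.43, 6.58 and 6.59. The 7 H piglets had 7.26, 6.05, 7.59, 6.32, 7.46, 7.39 and 6.41. Replicates 1, 3, 5 and 6 of H (2 females and 2 males) thus exceeded all L and M piglets, whereas replicates 2, 4 and 7 lay among them. The group means were 6.17 ± 0.33 in L (SD, n = 6), 6.28 ± 0.35 in M (SD, n = 7) and 6.92 ± 0.64 in H (SD, n = 7).

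H minus L of SLC8A1 was 0.76 (SE 0.24, 95% CI 0.26 to 1.27), a fold of 1.70, with an unadjusted limma p of 0.00492 that did not pass the adjustment over all probe sets (q = 0.426). The exact permutation test gave p = 0.0396, where 0.00117 was the smallest p to be reached. M minus L was 0.10 (SE 0.24, exact p = 0.552). H minus M was 0.66 (SE 0.24, 95% CI 0.18 to 1.15), a fold of 1.58 (q = 0.600, exact p = 0.0425). H minus L was highest without H replicate 2 (0.90) and lowest without L replicate 6 (0.64). In a variance analysis without moderation, closer to the study's own test, the unadjusted p of H minus L was 0.0114, above the threshold of 0.01. With array weights SLC8A1 was called in H against L (0.72, q = 0.166), together with 4.26% of all probe sets, although its unadjusted p of 0.00585 was larger than in the fit without weights. Of the 20 fits that left out 1 piglet, 14 kept an unadjusted p under 0.01. The 6 that did not were those without L replicate 2 or 6 and those without H replicate 1, 3, 5 or 6.

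The other 8 probe sets of SLC8A1 were dimmer. The second one that passed had H minus L of 0.31 (SE 0.20, q = 0.650) and H minus M of 0.38 (SE 0.19, q = 0.733) and followed the main probe set with r = 0.85. Over all 9 probe sets H minus L ran from -0.18 to 0.76, above 0 for 7 of them. Their mean gave 0.29, and the mean of the 2 that passed 0.54. Of the 9, 3 lay under the mean of the background controls on all arrays, with H minus L of 0.59, -0.00357 and -0.18. The 0.59 had an unadjusted limma p of 0.00646 in the fit without a filter (q = 0.650).

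SLC24A4 exchanges sodium for calcium together with potassium and is best known from brain, teeth and smell. Its main probe set exceeded the median of the array on 8 of 20 arrays, so its q are from the fit without a filter. It ran from 4.02 to 4.56 in L (median 4.13), from 4.25 to 4.54 in M (median 4.38) and from 3.60 to 4.78 in H (median 4.44). The M piglets sat close together within the range of L, and the lowest and the highest of all were H piglets. M minus L was 0.21 (95% CI -0.09 to 0.51, exact p = 0.0420), H minus L 0.14 (95% CI -0.17 to 0.44, q = 0.923, exact p = 0.438) and H minus M -0.07 (q = 0.985, exact p = 0.721). A second probe set had H minus L of 0.31 (95% CI 0.06 to 0.56, q = 0.688) and M minus L of 0.28 (95% CI 0.03 to 0.53), but it did not vary with the main one (r = 0.10).

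**Figure D2:**
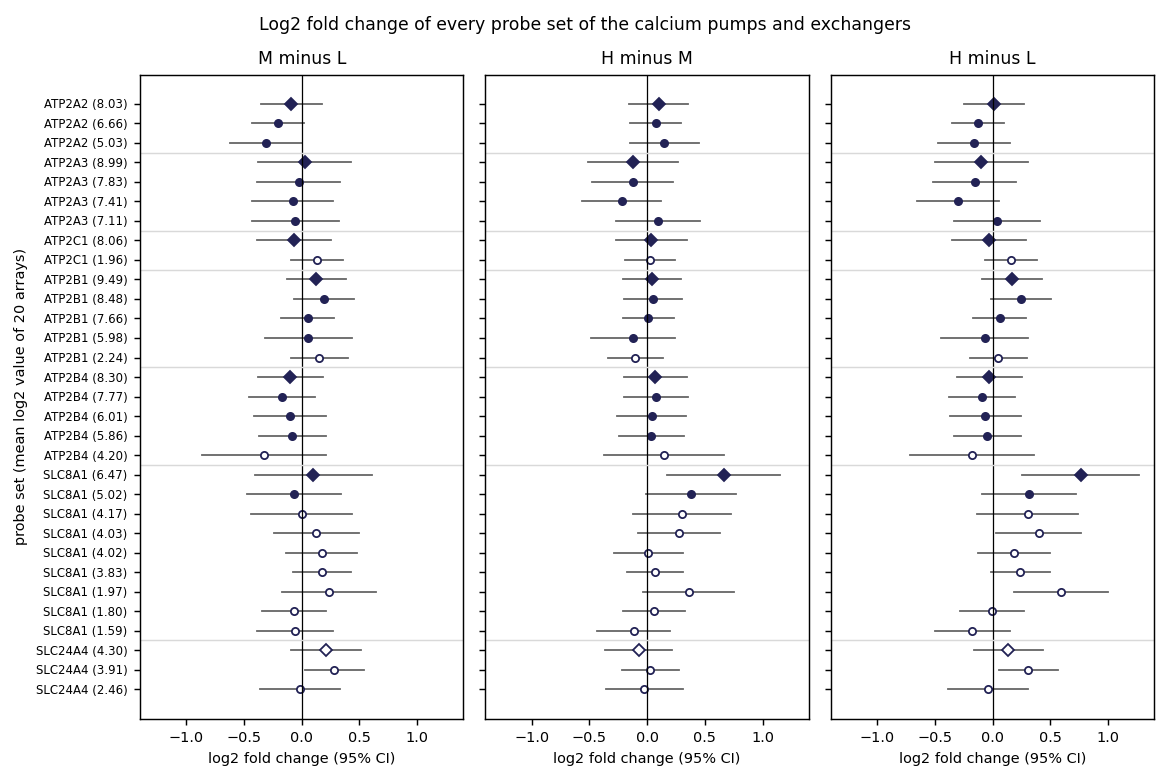
Log2 fold change with 95% confidence interval (horizontal axis) of each of the 31 probe sets (vertical axis, labelled by gene and mean log2 value over 20 arrays) for M minus L, H minus M and H minus L. Diamonds are main probe sets and open symbols did not pass the filter, and the SLC8A1 main probe set lies farthest from 0 in H minus L, at 0.76.

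The exact permutation tests, which use neither variance sharing nor sex, numbered 21. Of these, 3 gave a p under 0.05, namely SLC8A1 against both other diets in H and SLC24A4 in M against L, and these p are not adjusted for the number of tests. The groups overlapped in all 21 comparisons. These tests were run for the transporter genes only, so no share over all probe sets stands beside these counts.

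No gene of the 7 was called between males and females (0.0181% of all probe sets were) or for the interaction of diet H against L with sex (0% of all). The smallest p of the 18 probe sets was 0.0844 for sex and 0.239 for the interaction, before adjustment. SLC8A1 had H minus L of 0.91 in males and 0.63 in females, and the difference of 0.28 (SE 0.49) was not past the threshold (q = 0.840).

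The genes also differed in how much they varied among piglets whatever the diet. The SD of SLC8A1 over 20 piglets was 0.56, at percentile 94.4 of the probe sets tested, whose median SD was 0.27. ATP2A3 (SD 0.34) was at percentile 73.0 and ATP2C1 (SD 0.26) at 44.2. ATP2B4, ATP2A2 and ATP2B1 varied less, with SDs of 0.22, 0.20 and 0.20 at percentiles 25.5, 17.5 and 17.1.

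The SLC8A1 values fell into 2 clusters, 16 piglets up to 6.59 and 4 from 7.26, a gap of 33.0% of its range, and its correlations were therefore computed over the 16. No other gene had such a gap. Among the 21 pairs of genes, 2 correlated over piglets on Pearson's r after Benjamini-Hochberg adjustment of permutation p. ATP2A2 and ATP2B1 had Pearson's r = 0.69 (permutation test, adjusted p = 0.0141) and Spearman's rho = 0.62 (adjusted p = 0.0460), with r = 0.47 without the 2 piglets farthest from the ATP2A2 median. ATP2A2 and ATP2A3 had r = 0.61 (permutation test, adjusted p = 0.0405) and rho = 0.50 (adjusted p = 0.134), with r = 0.52 without those 2 piglets. Within the L, M and H piglets the first pair had r of 0.86, 0.80 and 0.65 and the second 0.83, 0.75 and 0.42. ATP2A2 and ATP2C1 passed on rho alone, at 0.62 (permutation test, adjusted p = 0.0460), with r = 0.51 (adjusted p = 0.106).

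PBMC are a mixture, and in such bulk samples fewer cells of a type and less RNA per cell cannot be told apart. A score for each cell type, the mean of its standardized markers, was set against the 7 genes, 56 relations in all. ATP2A3 followed the lymphocyte scores, with r = 0.76 and rho = 0.73 for NK and cytotoxic cells (permutation test, adjusted p = 0.00392 and 0.00952). For B cells r was 0.72 and rho 0.75 (permutation test, adjusted p = 0.00915 and 0.00952), and for T cells r was 0.69 and rho 0.67 (adjusted p = 0.00915 and 0.0267). It ran against the neutrophil score (r = -0.62, rho = -0.64, permutation test, adjusted p = 0.0431 and 0.0440). Without the 2 most distant piglets these r were 0.68, 0.71, 0.59 and -0.59. The signs were the same within each diet, with r for NK and cytotoxic cells of 0.57 in L, 0.76 in M and 0.89 in H. With the monocyte score ATP2A3 had r = -0.59 and rho = -0.60 (permutation test, adjusted p = 0.0520 and 0.0607). Its r with that score was -0.73 in L, -0.44 in M and -0.77 in H.

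ATP2A2 followed the T cell score (r = 0.64, rho = 0.55, permutation test, adjusted p = 0.0307 and 0.0746), and r was 0.68 without the 2 most distant piglets. Its r within the L, M and H piglets was 0.66, 0.96 and 0.74. These 5 relations, 4 of ATP2A3 and 1 of ATP2A2, were those that passed on Pearson's r. ATP2C1 had r = -0.63 and rho = -0.39 with the erythroid score (permutation test, adjusted p = 0.0520 and 0.230). Its r was -0.74, -0.60 and -0.76 within L, M and H, but -0.02 without the 2 piglets of most distant erythroid score.

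**Figure D3:**
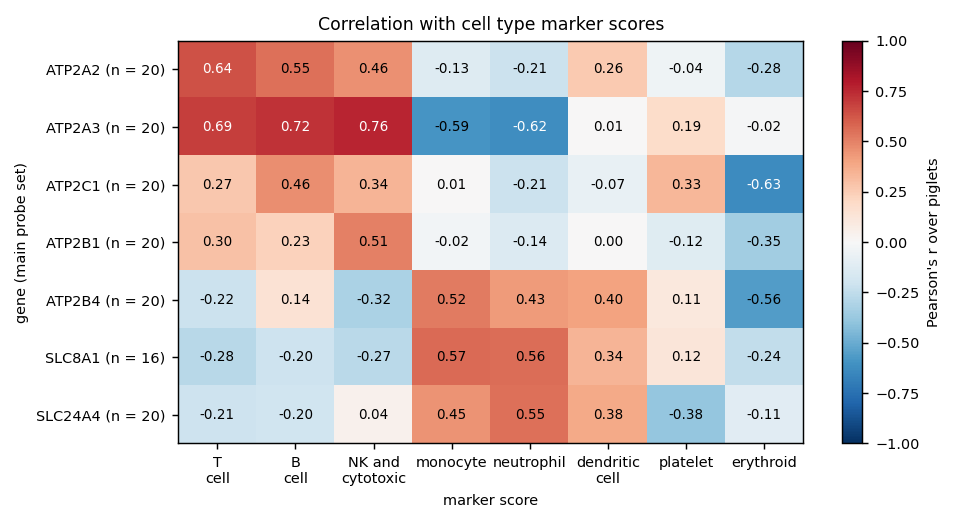
Pearson's r over piglets (colour and printed value) between the main value of each gene (rows, with the number of piglets) and 8 cell type marker scores (columns). ATP2A3 has r of 0.69 to 0.76 with the lymphocyte scores, -0.62 with the neutrophil score and -0.59 with the monocyte score. SLC8A1, over 16 piglets, has 0.57 with the monocyte score.

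No marker of the 8 cell type lists was called in a diet comparison. All 6 monocyte markers measured had H above L, with a median of 0.79, and so did all 9 neutrophil markers, with a median of 0.80, against 45.1% of the 9346 named genes with a median of -0.02. The mean monocyte marker level was 7.34 to 8.75 in L, 7.70 to 9.17 in M and 8.32 to 9.69 in H, and the neutrophil level 7.20 to 8.72, 7.18 to 9.004 and 7.80 to 9.36. H was below L for 6 of 7 T cell markers (median -0.36), 5 of 6 B cell markers (median -0.34), 5 of 7 NK and cytotoxic markers (median -0.09) and 5 of 5 erythroid markers (median -0.28). It was above L for 4 of 6 platelet markers (median 0.18) and 4 of 5 dendritic cell markers (median 0.17).

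The monocyte marker level of H replicates 1, 3, 5 and 6, those with the high SLC8A1 values, was 9.55, 9.20, 9.69 and 9.44. In H replicates 2, 4 and 7 it was 8.78, 8.32 and 8.36. The former were thus also the 4 highest of the 20 piglets for the monocyte markers. M replicate 5 came close to them at 9.17, with SLC8A1 at 6.43. Over the 16 piglets without those 4 of H, SLC8A1 had r = 0.57 and rho = 0.36 with the monocyte score (permutation test, adjusted p = 0.107 and 0.355). Its r was 0.26 without the 2 most distant piglets, 0.66 within L and 0.60 within M. The corresponding r for the neutrophil score was 0.56 (permutation test, adjusted p = 0.101) and rho 0.45 (adjusted p = 0.224).

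With the monocyte and neutrophil scores as covariates, H minus L of SLC8A1 was 0.19, against 0.76 without them, and H minus M 0.22, against 0.66, and neither was past the threshold. H minus L of ATP2A3 turned from -0.10 to 0.30 in this fit, and neither value was past the threshold. The part of cell composition in the SLC8A1 and ATP2A3 values was not tested.

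**Figure D4:**
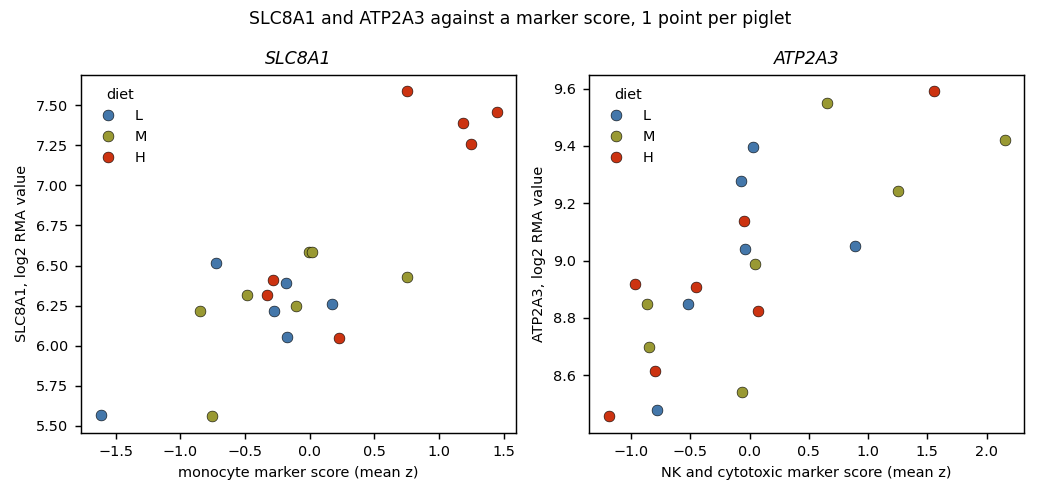
Log2 RMA value (vertical axis) of SLC8A1 against the monocyte marker score (left) and of ATP2A3 against the NK and cytotoxic marker score (right), the mean of standardized markers (horizontal axis), with 1 point per piglet coloured by diet. In the left panel 4 H piglets stand apart from the other 16 at 7.26 or higher, and in the right panel r is 0.76 over 20 piglets.

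**Figure D5:**
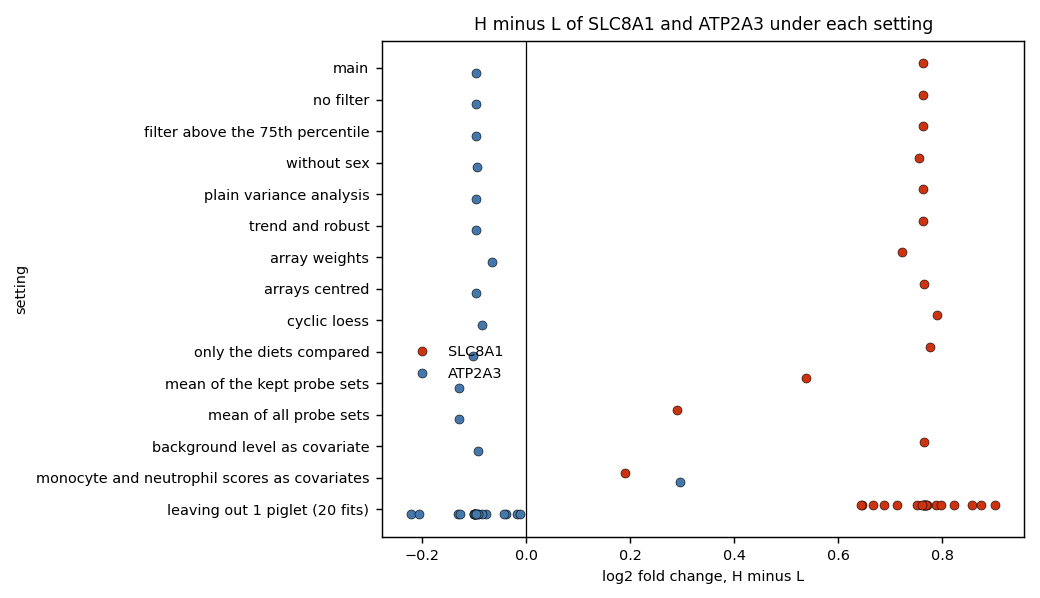
H minus L on the log2 scale (horizontal axis) of SLC8A1 and ATP2A3 under each setting of the fit and for each of 20 fits without 1 piglet (vertical axis). SLC8A1 stays between 0.64 and 0.90 when 1 piglet is left out, and is at 0.19 with the marker scores as covariates, where ATP2A3 lies at 0.30.

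The genes most like each transporter over the 20 piglets, of the 9346 named genes, are given as a description. SLC8A1 varied most like PDE7B, a cyclic AMP phosphodiesterase (r = 0.87), HEATR5A (r = 0.87) and the Wnt co-receptor LRP6 (r = 0.87), relations that include the 4 piglets set apart above. ATP2A3 was closest to the lymphocyte adaptor SASH3 (r = 0.94), the Golgi exchange factor GBF1 (r = 0.92) and CLSTN1 (r = 0.89), and ATP2A2 to ANKIB1 (r = 0.93), the exoribonuclease XRN2 (r = 0.92) and BAG4 (r = 0.91). For ATP2C1 these were INPP5F (r = 0.92), the integrin beta chain gene ITGB1 (r = 0.90) and VAMP7 (r = 0.88). ATP2B1 came closest to PITPNB, DPP8 and KLHL28 (r = 0.85 each). ATP2B4 had lower values, 0.79 with the thromboxane synthase gene TBXAS1, 0.76 with RNASE6 and 0.76 with the lipoprotein receptor gene SCARB1. SLC24A4 had 0.87 with TANC2, 0.75 with ADAP2 and 0.75 with TMCO1.

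None of the other genes of calcium handling was called in H against L, where 2 of the 9346 named genes were. Of 14 further pumps and exchangers, 6 passed the filter, 2 above and 4 below 0 (median -0.11), with GHITM, a mitochondrial inner membrane protein, at -0.28 (SE 0.13, q = 0.514) and the plasma membrane pump ATP2B2 at -0.16 (q = 0.825). GHITM was the only gene of the calcium lists that was called anywhere, in H against M, where 4 of 9346 named genes were. It was lower in H than in M by a log2 fold change of -0.65 (SE 0.12, q = 0.198), and M minus L was 0.36, at an unadjusted p under 0.01 but not called.

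Partners and regulators of the pumps, such as calmodulin, had H below L for 7 of the 8 genes that passed of 14 listed (median -0.12). The PMCA subunit NPTN was at 0.20 (q = 0.576) and HAX1, which binds SERCA2, at -0.31 (q = 0.644). In H against M the thioredoxin-related TMX1, chosen after its value was seen, was at -0.50 (SE 0.17, q = 0.585). Release channels and proteins of the stores split evenly, 7 above and 7 below 0 of 14 that passed of 24 (median -0.01), with the leak channel TMCO1 at 0.31 (SE 0.12, q = 0.455) and the calcium-binding NUCB2 at 0.58 (SE 0.27, q = 0.535). Entry channels were above 0 for 8 of the 12 that passed of 21 (median 0.02), with the store sensor STIM2 at -0.12 (q = 0.809) and the channel TRPV2 at -0.11 (q = 0.872). Of 8 genes of mitochondrial uptake 1 passed, VDAC1 of the outer membrane, at -0.24 (q = 0.597). Over all 9346 named genes, 131 were higher and 73 lower in H than in L at p under 0.01.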

How the data were processed

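PBMC RNA of 20 piglets was read on the snowball array, a pig expression array with 1 colour. The authors scanned the arrays with GCOS 1.1.1 (per the labels), applied RMA and deposited log2 values. Quantile normalization removes most of a change shared by all transcripts. No genome build was used, and precision is limited by how many arrays there were. The study's presence calls need probe intensities, so the filter used here was brightness above the array's own median in 16 or more of 20 piglets (80%), which left 22127 probe sets without the 123 controls. Names are those of the array annotation (26426 probe sets with 1 name, 21419 without, 446 names updated through current gene tables). Groups follow the labels.

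Diet (L, M and H in 1 model) and sex were fitted with limma 3.58.1 in R 4.3.3, moderating the variances. Litter, used in the methods, is not in the labels. A call needed an unadjusted p under 0.01 and a q under 0.21. Exact permutation tests ran over all splits, and correlations over 100000 permutations (SciPy 1.17.1, Python 3.11.15). The limma fit of H against L was tested on simulated data, and the other steps were not. The genes, gene lists and tests were chosen with earlier results of these data known, so p-values do not allow for that choice. Named were all 7 genes with each probe set, the 3 genes most like each, the 2 genes of smallest p in H against L (or all under 0.01) of each calcium list, and the brightest gene of each marker list. Also named were the neutrophil markers that the paper lists. Alternatives were other filters, no sex term, unmoderated variance analysis, trend and robust fits, array weights, centring, cyclic loess, marker scores as covariates, only the diets compared, the mean of all probe sets and leaving out each piglet. The mean of the kept probe sets and the background level as a covariate were added after seeing the data. The restriction of the SLC8A1 correlations to 16 piglets was also decided after seeing its values.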

Additional observations from a re-analysis of the deposited data

Results flagged for a closer look

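In each of 21 groups (7 genes in 3 diets) the piglet farthest from the others was tested by the size of its gap relative to the range of the group, and 4 stood apart, where chance gives about 1 in 20 groups. For ATP2A2 the L replicate 2 was lowest, at 7.67, with the next L piglet at 8.10. For ATP2C1 the H replicate 5 was highest, at 8.78, with the next at 8.12. For SLC8A1 the M replicate 3 was lowest, at 5.56, with the next at 6.21. For SLC24A4 the L replicate 5 was highest, at 4.56, with the next at 4.15.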

How the results depend on the processing

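In H against L, 0 genes were called, but 1, SLC8A1, was called with array weights (0.72), where 943 of 22127 probe sets were called against 6 in the fit without weights, and 1 at an unadjusted p under 0.01 alone. H minus L of SLC8A1 was above 0 in all 33 alternatives. Of 56 marker relations, 5 passed on the values and 13 on residuals after diet and sex. Of 21 gene pairs, 2 passed on the values and 3 on residuals, there also ATP2C1 and ATP2B1 (r = 0.64, permutation test, adjusted p = 0.0138). Each gene and comparison had 1 value for each of the 33 alternatives. Differences of the 6 genes other than SLC8A1 changed sign in 41 of 594 such values. Those of SLC8A1 did so in 2 of 99, both in M minus L. With array weights, M minus L of ATP2C1 was 0.0011 and H minus M of ATP2C1 and ATP2B1 -0.048 and -0.035. With the monocyte and neutrophil scores as covariates, H minus L was 0.30 for ATP2A3 and -0.084 for SLC24A4, M minus L of SLC8A1 -0.058, and H minus M 0.14 for ATP2A3, -0.018 for ATP2C1 and -0.12 for ATP2B4. With the mean of all probe sets, H minus L was -0.092 for ATP2A2 and 0.063 for ATP2C1, M minus L -0.033 for ATP2A3 and 0.034 for ATP2C1, and H minus M -0.026 for ATP2B1. With the mean of the kept probe sets these were -0.092 for ATP2A2 (H minus L), -0.033 for ATP2A3 (M minus L) and -0.0065 for ATP2B1 (H minus M). With the background level as a covariate, M minus L of ATP2C1 was 0.013 and H minus M of ATP2C1 and ATP2B1 -0.039 and -0.016. Leaving out 1 piglet moved H minus L from -0.068 to 0.084 for ATP2A2, -0.093 to 0.060 for ATP2B4 and -0.15 to 0.038 for ATP2C1. It moved M minus L from -0.086 to 0.11 for ATP2A3, -0.14 to 0.022 for ATP2C1 and -0.010 to 0.23 for SLC8A1, and H minus M from -0.026 to 0.11 for ATP2B1, -0.074 to 0.11 for ATP2C1 and -0.14 to 0.063 for SLC24A4. The cause of these changes was not tested. Each piglet received 1 diet and litter is not in the labels, so no paired analysis was possible. Replicate numbers were given here, in the order of the sample titles within a diet. Signal near the background limits SLC24A4 and the dim probe sets of SLC8A1.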
